A study of Homo sapiens with 2 samples.

Results

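Assembled transcripts that share no intron with an annotated gene were collected from RNA-seq of an RBMS1 knockdown and a control library of breast cancer cells. Besides annotated reference transcripts, each library lists transcripts that Cufflinks assembled from the aligned reads, 60329 in the knockdown and 64210 in the control. A member is an assembled transcript at 10 FPKM or more in its own library that has no intron on the same strand in common with a transcript of GENCODE release 29. FPKM, a count of fragments divided by the length of the transcript and by the size of the library, is given as the authors deposited it. Of the 1145 assembled transcripts at 10 FPKM or more in the knockdown, 594 (51.9%) met the rule, as did 615 of 1166 (52.7%) in the control. Joined by overlapping position, members of both libraries made 1027 loci, of 72826 loci of all assembled transcripts without a shared intron. The members were thus chosen by FPKM, and every FPKM below describes them without a test.

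The cells were MDA-MB-231, a line from a human triple-negative breast cancer. The knockdown cells had been infected with a lentivirus carrying a pLKO.1 short hairpin RNA against RBMS1, an RNA-binding protein, and the control cells with pLKO.1 control virus, and both were selected with puromycin as stable cells. They were grown in L-15 medium with 10% fetal bovine serum without CO2, and RNA was extracted with Trizol. There was 1 library per group, so no value has a replicate, a standard deviation or a p-value.

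RBMS1 itself was at 3.76 FPKM in the knockdown and 24.1 in the control, a log2 ratio of −2.40 with 1 FPKM added to both, which leaves 15.6% of the control level. In bulk RNA, fewer cells with a transcript and less RNA of it per cell cannot be told apart. VIM, the intermediate filament of mesenchymal cells, was at 496 FPKM in the knockdown and 563 in the control. CD44 was at 154 and 204 FPKM, AXL at 251 and 229, and CAV1 at 168 and 112, so all 4 genes of a mesenchymal-like line were high in both libraries. The oestrogen receptor ESR1 was at 0.0996 FPKM in the knockdown and 0.0286 in the control, and the progesterone receptor PGR at 0.00168 and 0.00367. ERBB2 was at 7.50 and 7.005 FPKM, EPCAM at 1.93 and 3.66, GATA3 at 2.11 and 1.56, and CDH1 at 0.0467 and 0.0952. PTPRC of leukocytes was at 0.115 and 0.0170 FPKM, PECAM1 of endothelium at 0.0307 and 0.0704, and CD3E of T cells was listed at 0 in both.

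Many abundant RNAs of the nucleus and cytoplasm are made without introns. 7SK RNA, transcribed by RNA polymerase III, holds the elongation factor P-TEFb in an inactive complex, and 7SL RNA forms the scaffold of the signal recognition particle, which brings ribosomes to the endoplasmic reticulum. Spliceosomal small nuclear RNAs recognise splice sites, small Cajal body RNAs guide their modification, and mRNAs of the replication-dependent histones have no introns and end in a stem-loop in place of a poly(A) tail.

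Sequences are shown for a pair of small RNA loci that were assembled in both libraries and carry the letters that define their family, read from GENCODE release 29 on GRCh38. SCARNA21 (chr17:7906122-7906260, plus strand), a small Cajal body RNA, and SNORA12 (chr10:100237156-100237302, minus strand), a small nucleolar RNA, have in capitals the ACA that stands 3 bases before the end of H/ACA guide RNAs. The assembled transcripts cover all 139 bases of SCARNA21 and 133 of the 147 bases of SNORA12. On the transcribed strand that ACA is found in 76.2% of 147 SNORA transcripts of 100 to 350 bases and in 7.02% of all 4419 GENCODE small RNA transcripts of those lengths.
SCARNA21: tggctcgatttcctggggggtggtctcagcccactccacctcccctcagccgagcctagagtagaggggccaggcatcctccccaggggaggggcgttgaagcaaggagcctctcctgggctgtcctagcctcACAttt
SNORA12: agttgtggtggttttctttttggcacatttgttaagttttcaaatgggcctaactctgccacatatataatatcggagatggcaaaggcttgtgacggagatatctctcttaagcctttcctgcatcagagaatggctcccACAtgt

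A working name for these transcripts places them outside gene introns, and the data go against it. Of the 1027 loci, 864 (84.1%) lie within the span of a gene and touch none of its exons, that is, within introns. Another 80 (7.79%) lie outside every gene and 83 (8.08%) overlap an exon. The rule asks only that no splice junction is shared, and a transcript with 1 exon has none: 582 of the 594 members of the knockdown and 605 of the 615 of the control have 1 exon. They are called here loci without a shared intron.

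By the genes whose span they overlap, 793 of the 1027 loci (77.2%) fell to protein-coding genes, 94 to lncRNAs, 29 to small RNAs, 15 to histone genes and 16 to pseudogenes or other genes, and 80 to none. Since the files hold no counts, fragments were derived as a function of length from the Cufflinks intervals of transcripts without introns. They do not always follow from a transcript's own interval. At MALAT1 and RN7SL2 that interval is wider than the counting error of the fragments given. By this measure all transcripts of the knockdown held 27986481 fragments and those of the control 25931032. Of the fragments of the member transcripts, small RNA loci held 81.1% in the knockdown and 85.1% in the control. This control share and the next take in the RN7SL2 locus, at 220150 of 936346 member fragments. In the knockdown RN7SL2 is no member, and a reference transcript is listed over it. Without the locus over the lncRNA MALAT1, which counts as small RNA through an annotated gene within it, the small RNA loci held 45.2% and 58.7%. Other loci of this class also owe it to a small gene within a longer transcript, such as those over MIR222HG and HIST1H2AH. With classes by the gene with most overlapping bases, 12 loci in place of 29 were small RNA and held 41.1% and 34.5%. Of the same member fragments, the protein-coding loci held 8.33% in the knockdown and 7.67% in the control, the histone loci 6.49% and 3.39%, the lncRNA loci 3.61% and 3.45%, and the loci outside genes 0.466% and 0.372%.

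The order by FPKM was a different one. In the knockdown the protein-coding loci held 70.7% of the FPKM of the members and the small RNA loci 26.3%, and in the control the small RNA loci held 89.8% and the protein-coding loci 2.04%. Most of that exchange sits in 1 transcript of each library. In the knockdown a transcript of 150 nt at the locus chr6:37860709-37860953, in an intron of ZFAND3, was listed at 419057 FPKM with an interval of 176197 to 661917, 33.2% of all FPKM of the library, from 11.9 fragments. In the control a transcript of 151 nt at the locus chr9:9442084-9442299, on RN7SL5P, was listed at 431458 FPKM with an interval of 319021 to 543896, 33.5% of all FPKM, from 58.9 fragments. In the other library of each, the ZFAND3 locus was a transcript of 245 nt at 37.3 FPKM from 26 fragments, and the RN7SL5P locus a transcript of 215 nt at 244 FPKM from 50.3 fragments. The log2 ratios of these loci were 13.42 and −10.78 in FPKM, and −1.18 and −0.35 in depth-scaled fragments, that is, fragments scaled to the depth of each library.

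Cufflinks divides by an effective length, which becomes very small for a transcript barely longer than a fragment. In the knockdown 1 fragment was worth 308 FPKM on a transcript of 160 nt, 36.8 FPKM at 180 nt, 10.3 at 200 nt, 1.24 at 250 nt, 0.419 at 300 nt and 0.0303 at 1000 nt. In the control the same lengths gave 302, 34.4, 9.51, 1.23, 0.431 and 0.0329 FPKM. A transcript of 200 nt thus reached 10 FPKM with about 1 fragment, where a transcript of 1000 nt needed 330 in the knockdown and 304 in the control. The member in an intron of MAPK14 (chr6:36098915-36099230) stood just inside the threshold in the control at 10.022 FPKM from 29 fragments, and a transcript in HIF1A (chr14:61700650-61701020) just outside it at 9.96 FPKM. In the knockdown the nearest inside was a locus outside genes at chr6:26594868-26595183, at 10.0004 FPKM from 30 fragments, and the nearest outside a transcript in an intron of SSH1 (chr12:108838111-108838378) at 9.97 FPKM from 13 fragments.

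Most members were short and rested on few fragments. Their median length was 266 nt in the knockdown and 264 nt in the control, against 936 and 928 nt for all assembled transcripts without a shared intron. Of the members, 69.7% in the knockdown and 69.3% in the control were under 300 nt, against 1.93% and 1.87% of all such transcripts. Their median level was 15.1 FPKM in the knockdown and 14.7 in the control, with a median of 19.5 and 19 fragments, and 430 (72.4%) and 459 (74.6%) had fewer than 50. The 7 members over 1000 FPKM in the knockdown and the 10 in the control held 95.6% and 96.3% of the members' FPKM. Members made up 49.6% of all FPKM in the knockdown and 54.4% in the control, but 3.001% and 3.61% of all fragments. The order of these 2 shares of fragments rests on RN7SL2, a member in the control only. It held 220150 of the 936346 member fragments there, and the members of the knockdown had 839841.

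**Figure D1:**
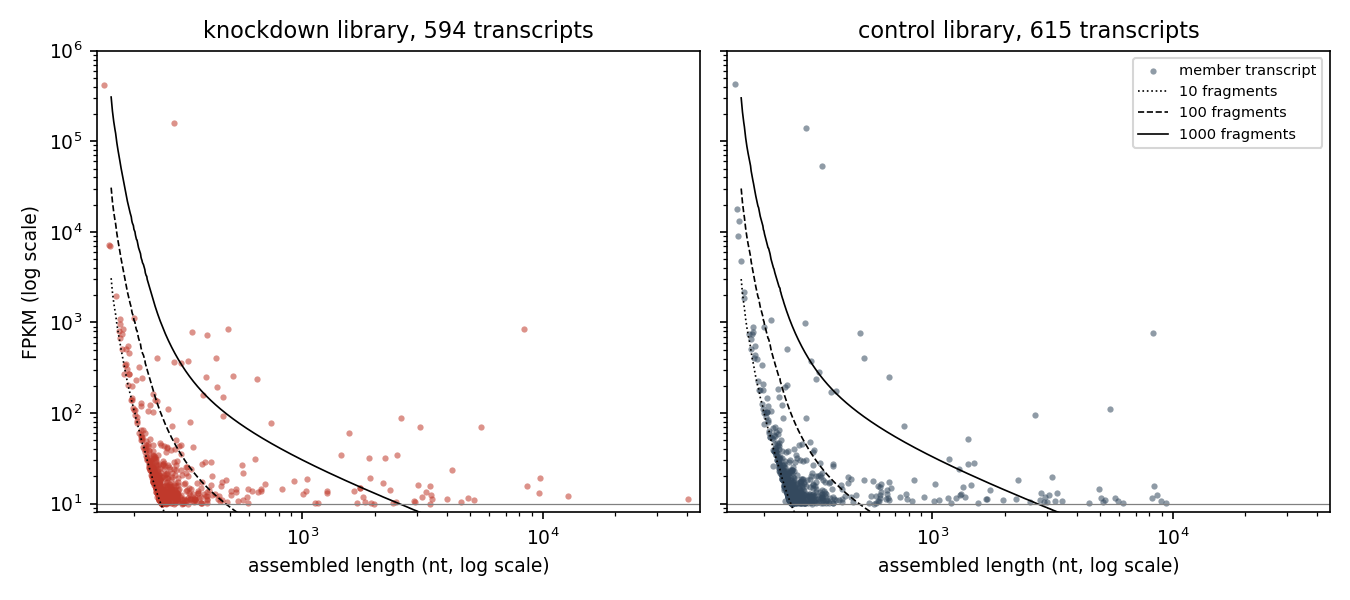
FPKM of each member transcript (log scale) against its assembled length in nt (log scale) in the knockdown (594 transcripts) and the control (615), with lines at the FPKM that 10, 100 and 1000 fragments give at each length. Most points lie at 200 to 300 nt near the line of 10 fragments, and the points near 150 nt stand highest.

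RN7SK had the most fragments of any member in both libraries. Its locus, chr6:52995614-52995912, was at 160924 FPKM in the knockdown (interval 160367 to 161481) and 139708 in the control (139207 to 140210), a log2 ratio of 0.20. It took 12.7% of all FPKM in the knockdown and 10.9% in the control. In fragments, 342986 in the knockdown and 319167 in the control, the depth-scaled log2 ratio was −0.02, so the level of 7SK RNA per fragment sequenced was nearly the same, and the lengths assembled were 293 and 299 nt.

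RN7SL2 was assembled only in the control, at chr14:49862508-49862855, with 53539 FPKM from 220150 fragments, 4.16% of all FPKM of that library. The knockdown lists a reference transcript of 374 nt over the same bases (chr14:49862536-49862909) at 45724 FPKM, and the control lists that transcript at 0. With the reference added, the locus stood at 45724 FPKM in the knockdown and 53539 in the control, a log2 ratio of −0.23. An abundant transcript thus lay over RN7SL2 in both libraries, assembled in the control and listed as reference in the knockdown. No gene name was matched to that reference transcript, so its place at RN7SL2 rests on overlap alone. At the position of RN7SL1 (chr14:49586579-49586878) a reference transcript stood at 151225 FPKM in the knockdown and 143883 in the control, with no member over it. RMRP, the RNA of the mitochondrial RNA processing ribonuclease, was likewise listed as a reference transcript, at 74785 and 69392 FPKM, a log2 ratio of 0.11.

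RN7SL3 was lower in the knockdown, at 368 FPKM from 771 fragments against 983 FPKM from 2077 fragments in the control, a log2 ratio of −1.42. The 7SL genes and their copies are near-identical, so the division of reads among RN7SL1, RN7SL2, RN7SL3 and RN7SL5P is uncertain in both libraries, and its part in the value of RN7SL3 was not tested. The locus over MALAT1, a nuclear lncRNA, was classed as small RNA because the small RNA gene RF01871 is annotated within it. At chr11:65497701-65506022 it was a single transcript of 8322 nt in the knockdown and 8260 nt in the control, at 857 and 767 FPKM, a log2 ratio of 0.16 in FPKM and also in depth-scaled fragments, from 301190 and 247106 fragments. Without the top 3 members by fragments, the members held 0.628% of all fragments in the knockdown and 0.578% in the control.

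Small Cajal body RNAs gave 5 loci from 24 genes. SCARNA7 was at 360 FPKM in the knockdown from 1024 fragments and 380 in the control from 1044, and SCARNA21 at 408 from 320 fragments and 505 from 399. Their log2 ratios were −0.08 and −0.31. SCARNA5 was at 161 and 88.1 FPKM (log2 ratio 0.86) and SCARNA6 at 29.9 and 21.5 (0.46), and these neighbours on chromosome 2 were both higher in the knockdown by less than 2-fold. SCARNA13 was assembled only in the control, at 1067 FPKM from 214 fragments, with no reference transcript above 0 over it in the knockdown. SNORA12 was at 120 FPKM in the knockdown and 105 in the control. TERC, the RNA template of telomerase, was assembled at 249 and 173 FPKM beside a reference transcript at 111 and 82.0, a log2 ratio of 0.52 without and 0.50 with the reference.

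Of a list of 34 spliceosomal small nuclear RNA genes, 6 had a locus, and all 6 were at least 2-fold higher in FPKM in the knockdown, as were 384 of the 1027 loci and 22.3% of the 23098 loci of all assembled transcripts without a shared intron and with a mean of at least 1 FPKM. But 5 of the 6, all except RNVU1-14, have a member in the knockdown only and so entered through the library in which they are higher, and nothing is read from that count. Loci over other genes of the kind, named after their values were seen, did not all share that direction in FPKM: RF00003, of the U1 family, was at 29.0367 FPKM in the knockdown and 45.8 in the control, a log2 ratio of −0.64, but had 184 and 86 fragments, so its direction turned in fragments (0.97 depth-scaled). RNU5E-4P was at 17.0 and 9.86 FPKM (0.73) from 57 and 30 fragments (0.78 depth-scaled), and RF00004, of the U2 family, at 18.5 and 8.70 (1.01) from 649 and 264 fragments (1.17). RNVU1-15, a variant of the U1 RNA that pairs with 5′ splice sites, was at 39.7 FPKM in the knockdown and 6.94 in the control. RNU4-2, the U4 RNA, was at 23.9 and 1.70, and RNVU1-6 at 20.5 and 3.92. The assembled transcripts differed in length, 294 against 615 nt for RNVU1-15 and 292 against 1357 nt for RNU4-2, and in fragments the order was 86 in the knockdown and 103 in the control for RNVU1-15, 50 and 76 for RNU4-2, and 60 and 52 for RNVU1-6. So the direction of RNVU1-15 and RNU4-2 in fragments was opposite to that in FPKM. RNVU1-14 was at 27.2 and 11.1 FPKM from 158 and 71.5 fragments (1.01 depth-scaled), and with its reference transcript at 45.9 and 33.0, a log2 ratio of 0.46. RNU2-2P, a U2 small nuclear RNA gene, was assembled only in the knockdown, at 78.7 FPKM from 313 fragments, with no reference transcript listed above 0, and RNU12 of the minor spliceosome only there at 13.3 FPKM, beside a reference transcript at 1.73 FPKM in the knockdown and 2.79 in the control (2.07 for the sum). VTRNA1-3, a vault RNA, was assembled only in the knockdown, at 37.7 FPKM from 21 fragments.

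Other families were sparse. Of 275 C/D box small nucleolar RNA genes, which guide methylation of ribosomal RNA, 2 overlapped a locus: SNORD17 at 20.3 FPKM in the knockdown and 27.6 in the control, and SNORD60 at 10.0389 and 3.29 from 37.4 and 144 fragments. SNORD60 lies in SNHG19, and with the reference transcripts there the locus stood at 37.0 and 35.5 FPKM, a log2 ratio of 0.06. SNHG19 and SNHG3 were the 2 of 25 host genes of small nucleolar RNAs with a locus. Of 142 H/ACA genes, 3 overlapped 2 loci, the SNORA12 locus and a locus in SNHG3 that covers SNORA73A and SNORA73B, at 11.1 and 14.5 FPKM. A list of 14 RNA polymerase III genes, which leaves out RN7SL3 and RN7SL5P, had 3 loci, those of RN7SK, RN7SL2 and VTRNA1-3, and RF00100 is the family record over RN7SK. TERC was the sole gene of its list, and MALAT1, of MALAT1 and NEAT1, gave the single locus of the nuclear lncRNAs.

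**Figure D2:**
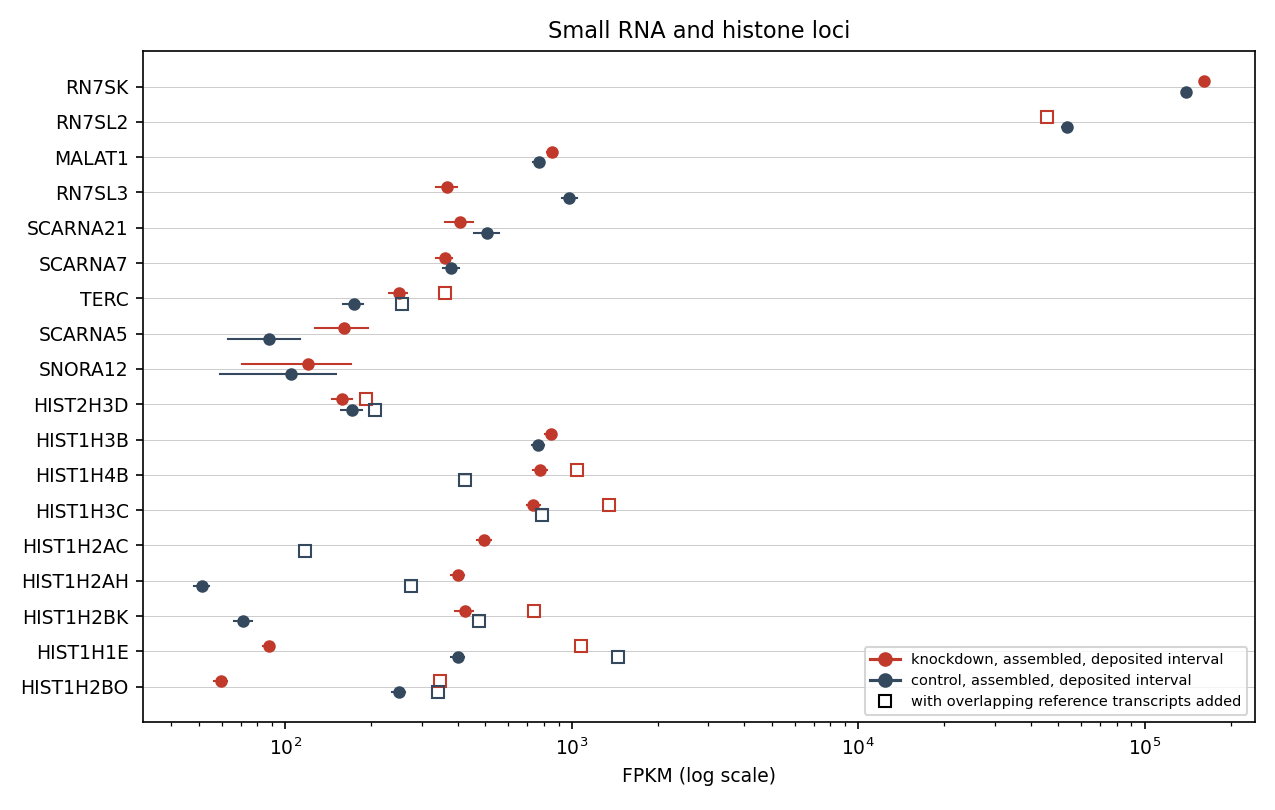
FPKM (log scale) of the named loci over small RNA and histone genes in the knockdown and the control, with the deposited within-library interval as a line and, as open squares, the level with overlapping reference transcripts added. RN7SL2, HIST1H4B and HIST1H3C have no assembled transcript in 1 library and a reference transcript there.

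All 5 histone families were represented, H1 with 2 loci, H2A with 4, H2B with 3, H3 with 5 and H4 with 3, and a locus over genes of several families counts in each. HIST1H3B, of histone H3, was assembled in both libraries at chr6:26031627-26032126, at 844 FPKM in the knockdown from 8795 fragments and 763 in the control from 7783, a log2 ratio of 0.15. No reference transcript was listed above 0 for HIST1H3B, so this locus is all of the gene that the files give. HIST2H3D was at 158 and 171 FPKM (log2 ratio −0.11). HIST1H4B (chr6:26026934-26027279) was assembled only in the knockdown, at 776 FPKM, beside a reference transcript at 267 FPKM there and 425 in the control, a log2 ratio of 1.29 for the sum. HIST1H3C (chr6:26045393-26045792) was assembled only in the knockdown, at 734 FPKM, beside a reference transcript at 621 and 787 FPKM (0.78 for the sum). HIST1H2AC (chr6:26124145-26127742) was assembled only in the knockdown at 496 FPKM, where its reference transcripts were listed at 0, and these stood at 118 FPKM in the control (2.07 for the sum).

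With reference transcripts added, several histone ratios shrank and others turned. HIST1H2BO was assembled at 59.6 FPKM in the knockdown and 249 in the control, and with the reference the log2 ratio of its locus was 0.02. The locus that covers HIST1H1E and HIST1H2BD was assembled at 87.7 and 401 FPKM, and its sum with the reference had a log2 ratio of −0.43. The locus of HIST1H2BK, which also covers HIST1H2BJ and HIST1H4I, was assembled at 423 and 71.5 FPKM, with 0.64 for the sum. HIST1H2AH was assembled at 400.5 and 51.1 FPKM, and its reference transcript was listed at 0 in the knockdown and at 225 in the control, so the sums were 400.5 and 276. The locus over HIST1H3A and HIST1H4A was assembled only in the knockdown, at 31.7 FPKM, while reference transcripts over it stood at 209 FPKM in the control and were listed at 0 in the knockdown, −2.68 for the sum. HIST1H2AJ, without reference values above 0, was at 92.0 and 31.5 FPKM (log2 ratio 1.52), but had 882 and 1180 fragments over 469 and 1176 nt, a depth-scaled ratio of −0.54. The locus of HIST1H1E also turned in depth-scaled fragments (0.91), while those of HIST1H2BK (1.55) and HIST1H2BO (−0.38) kept the direction of their assembled FPKM. HIST1H1C was at 70.4 and 94.2 FPKM. HIST1H2AI was assembled only in the control at 27.3 FPKM, beside a reference transcript at 249 FPKM in the knockdown and 197 in the control (0.15 for the sum). HIST1H3H was assembled only in the control at 28.2 FPKM, beside a reference transcript at 75.5 and 34.3 FPKM (0.27 for the sum).

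Summed over the 14 loci that overlap exons of histone genes, assembled transcripts stood at 4174 FPKM in the knockdown and 1887 in the control, a log2 ratio of 1.14. With reference transcripts the sums were 7581 and 6101, a ratio of 0.31. The 4 lower and 7 higher loci among them became 1 lower, that of HIST1H3A and HIST1H4A, and 3 higher. The 3 higher were those of HIST1H2AC, HIST1H4B and HIST1H2AJ, the last of them lower in depth-scaled fragments. Sums with reference transcripts add FPKM over unlike lengths. At HIST1H3A and HIST1H4A the assembled transcript had 2214 nt and the reference transcripts 411 and 312 nt. At HIST1H2AC the top assembled transcript had 514 nt and the reference transcripts 1668 and 1654 nt. Fragments of these reference transcripts are not given here, so the direction of these sums in fragments was not tested. By assembled transcripts, 395 of all 1027 loci were lower and 384 higher, and nothing is read from the histone counts. Histone genes of 1 family are near-identical in their coding sequence, so reads can be divided among them in more than 1 way, and the part of that in these values was not tested.

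Of all 83 loci over exons, which take in the histone loci, 51 were at least 2-fold apart between the libraries by their assembled transcripts and 27 with the reference transcripts added. Of the 34 of them that were assembled in 1 library only, 24 had a reference transcript above 0 in the other library. For the 26 classed by their exons as protein-coding, which leaves out histones, the same counts were 16 and 6, and 11 of 14. Over all 1027 loci 75.9% were at least 2-fold apart by assembled transcripts, and 56.4% were in 1 library only. For the 23098 loci of all assembled transcripts without a shared intron (mean of at least 1 FPKM), these were 50% and 41.1%. Nothing is read from the counts over exons. JUN, a subunit of the AP-1 transcription factor, was assembled only in the knockdown at 15.9 FPKM, while its reference transcript was at 9.64 FPKM there and 28.3 in the control, so its sums were 25.5 and 28.3. CTGF, a secreted matricellular protein, was assembled only in the control at 24.1 FPKM, and its reference transcript was at 69.6 and 42.7 FPKM, with 0.06 as the log2 ratio of the sums, but at gene level it stood at 77.7 and 42.7 FPKM. These sums take in only the reference transcripts that overlap the locus. SLC20A1, a phosphate transporter, was assembled only in the control at 19.9 FPKM (−0.11 for the sums), but at gene level it stood at 128 FPKM in the knockdown and 56.8 in the control. TIMP2, an inhibitor of metalloproteinases, was assembled only in the knockdown at 34.3 FPKM (0.38 for the sums), with gene-level values of 53.6 and 67.3 FPKM. For KLF6, a zinc finger transcription factor assembled only in the knockdown at 17.1 FPKM, the sums were 42.9 and 19.1 FPKM, a log2 ratio of 1.13, and the gene-level values 35.7 and 29.0138 FPKM. A transcript on the minus strand over an exon of CNN2 (chr19:1038728-1039064) was assembled in the control at 281 FPKM, and a reference transcript over the same bases was at 239 FPKM in the knockdown and at 0 in the control.

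Across all 1027 loci, 395 were at least 2-fold lower and 384 at least 2-fold higher in the knockdown, 75.9% together. Of 23098 loci of all assembled transcripts without a shared intron and with a mean of at least 1 FPKM, 27.7% were lower and 22.3% higher, 50% together. Of 11182 genes with a mean of at least 1 FPKM, 2.8% were lower and 2.97% higher, 5.77% together. Nothing is read from the difference, since a locus entered through the library in which it reached 10 FPKM. All 1027 loci passed the minimum of 1 FPKM by the rule itself. Of them 448 (43.6%) had an assembled transcript in both libraries, 276 in the knockdown only and 303 in the control only. Loci with a transcript in 1 library only were thus 579 (56.4%), against 41.1% of the 23098 background loci. Over the 448 the median log2 ratio was 0.10, against −0.03 over the 13598 background loci in both libraries and 0.02 over the genes. In depth-scaled fragments the median over the 448 was −0.11, so its direction turned.

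Of 29 small RNA loci 23 were in both libraries, and 4 were at least 2-fold lower and 11 higher, or 3 and 8 with reference transcripts added. Of the 12 that are small RNA by most overlapping bases, 3 were lower and 4 higher. Of 80 loci outside genes 64 were in both, with 23 lower and 18 higher. Of the 793 protein-coding loci 303 were in both, with 320 lower and 309 higher, of the 94 lncRNA loci 41, with 39 lower and 32 higher, of the 16 over pseudogenes or other genes 9, with 5 lower and 7 higher, and of the 15 histone loci 8, with 4 lower and 7 higher. The median log2 ratio over loci in both libraries was 0.46 for small RNAs, 0.20 for protein-coding genes, −0.07 outside genes, −0.24 for histones, −0.30 for lncRNAs and 0.68 for pseudogenes. Small RNA loci had 27 members in the knockdown and 17 in the control, and protein-coding loci 440 and 456. These medians are in FPKM, and nothing is read from them, since members were chosen by FPKM.

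The share of loci past 2-fold was highest where fragments were few, and a locus in 1 library only is past 2-fold by the rule. Of the 478 loci with fewer than 20 fragments in the deeper library 93.7% were at least 2-fold apart, and 84.1% had a transcript in 1 library only. The share was 73.5% of 238 loci from 20 to 50 fragments, and from 50 fragments up it did not fall steadily, at 49.7% of 171 from 50 to 200, 52.8% of 72 from 200 to 1000 and 48.5% of 68 from 1000 up. Among loci in both libraries alone, the share in the same 5 bins was 60.5%, 49.6%, 41.1%, 34.6% and 28.6%. Among the 68 best supported loci, which include RN7SK, MALAT1, HIST1H3B, SCARNA7 and RN7SL3, 14 were lower and 19 higher, 35 lay within 2-fold, and the median log2 ratio of the 49 in both libraries was 0.23.

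Differences in FPKM also went with differences in assembled length. Of the 448 loci in both libraries, 200 (44.6%) were at least 2-fold apart in FPKM and 165 (36.8%) in depth-scaled fragments. In 196 of the 200 (98%) the library with the higher FPKM had the shorter top transcript, as for ZFAND3 and RN7SL5P. Of the 200, 90 were less than 2-fold apart in fragments, 95 were 2-fold apart in the opposite direction and 15 in the same direction. Where the top transcripts of both libraries had lengths within a ratio of 1.1, 8.23% of 158 loci were past 2-fold in FPKM. The share was 40.4% of 109 loci at ratios of 1.1 to 1.5, 75.2% of 101 at 1.5 to 3 and 83.8% of 80 at 3 or more. In depth-scaled fragments the shares in those 4 groups were 8.23%, 22.9%, 53.5% and 91.3%, so they rose with the ratio of lengths too.

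**Figure D3:**
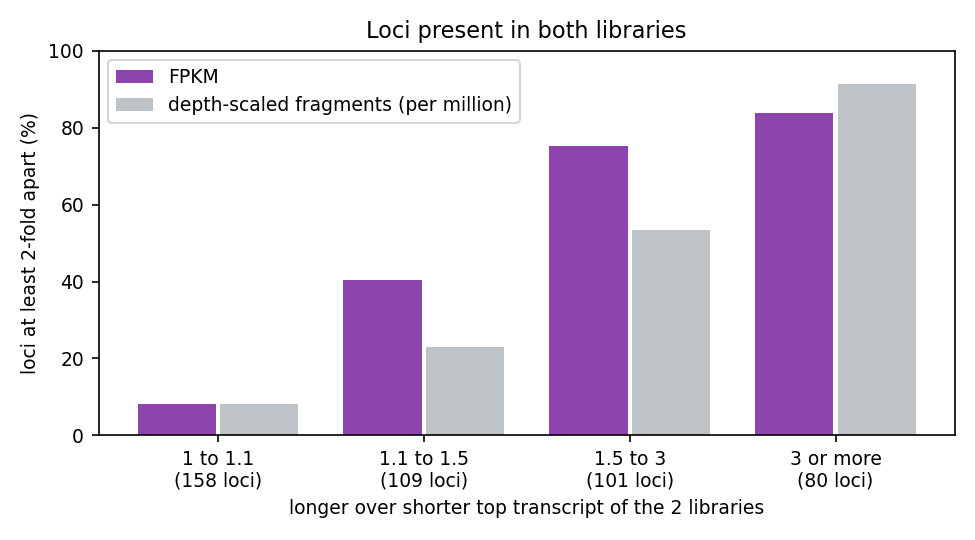
Share of loci at least 2-fold apart between the libraries (%), in FPKM and in depth-scaled fragments, by the ratio of the longer to the shorter top transcript of both libraries, over the 448 loci present in both. From below a ratio of 1.1 to 3 or more the share rises from 8.23% to 83.8% in FPKM and from 8.23% to 91.3% in fragments.

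The loci with the largest ratios show this. AC131011.1, a lncRNA locus on the X chromosome with the transcript on the opposite strand (chrX:23781762-23781915), was at 8.86 FPKM from 45 fragments over 366 nt in the knockdown and at 17723 FPKM from 14 fragments over 154 nt in the control, −10.81 in FPKM and 1.498 in depth-scaled fragments. In an intron of RNF114, a ubiquitin ligase gene, chr20:49943038-49943202 was at 7.92 and 2170 FPKM (−7.93) from 21 and 15 fragments. Outside genes, chr1:219612943-219613124 was at 2.32 and 553 FPKM (−7.38), and chr22:30253763-30253944 at 2.06 and 437 FPKM (−7.16). The fragments were 11 and 18.9 at the locus on chromosome 1, and 18 and 14.96 at that on chromosome 22. The largest increases after ZFAND3 lay in introns of MIER1, PTPRG, CAPN15 and PSORS1C1. MIER1, a transcriptional corepressor gene, had chr1:66937100-66937281 at 343 FPKM from 11 fragments over 182 nt in the knockdown. In the control that locus was at 1.97 FPKM from 51.0 fragments over 888 nt (6.85). PTPRG, a receptor phosphatase gene, had chr3:61596489-61596677 at 267 FPKM from 14 fragments over 189 nt and 2.84 FPKM from 264 fragments over 2548 nt (6.12). CAPN15 had chr16:531755-531953 at 107 and 1.54 FPKM (5.41), and PSORS1C1 chr6:31123083-31123284 at 109 and 1.94 FPKM (5.23), each with more fragments in the control. Their lengths in the knockdown and the control were 199 and 811 nt at CAPN15, and 202 and 567 nt at PSORS1C1. Fragments are not divided by length, so a longer transcript can hold more of them at the same level.

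Apart from RN7SL2, the highest loci assembled in 1 library only were short as well. Others were long: 20 loci in 1 library only had a top member of 1000 nt or more. In the knockdown the highest were in introns of CCDC84 (chr11:119006079-119006237) at 7065 FPKM from 18.0 fragments, C17orf67 (chr17:56792732-56792905) at 1089 FPKM from 18 fragments and NCEH1 (chr3:172710219-172710392) at 968 FPKM from 16 fragments. In the control, after RN7SL2, they lay outside genes at chr18:66622062-66622218, with 13063 FPKM from 23.7 fragments, and at chr4:135167515-135167674, with 4825 FPKM from 16 fragments. The lncRNA locus AC017002.5 (chr2:111474966-111475130), within the span of MIR4435-2HG, was at 1880 FPKM in the control from 13 fragments. Both host genes with a level above 0 were lower in the knockdown: gene-level FPKM of NCEH1, a cholesterol ester hydrolase, was 38.7 in the knockdown and 77.6 in the control, and that of C17orf67 was 0.573 and 1.72.

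Several other short loci had members in both libraries. In an intron of LARP4, which encodes a poly(A)-binding translation factor, chr12:50456583-50456783 was at 1132 FPKM from 106 fragments in the knockdown and 902 from 88.0 in the control, a log2 ratio of 0.33, with a transcript of 199 nt in both. The locus chr3:146366777-146366956, outside genes, was at 839 and 783 FPKM with 180 nt and 22.8 fragments in both. AC243967.2, a lncRNA that overlaps CEACAM6, had chr19:41768129-41768303 at 797 and 746 FPKM (0.09), and chrX:3553259-3553415, outside genes, was at 7161 and 9116 FPKM (−0.35). In PVT1, a lncRNA beside MYC, chr8:127897682-127897860 was at 1967 FPKM over 167 nt in the knockdown and 885 over 179 nt in the control, a log2 ratio of 1.15 in FPKM and −0.67 in depth-scaled fragments. Of the 171 loci with members in both libraries, 30 were past 2-fold, and the rule itself narrows that share, since it asks for 10 FPKM in each. Among pseudogenes, PSPC1P1 was at 24.0 and 22.5 FPKM, AC244258.1 at 27.01 and 16.4 (0.69) from 11 and 18 fragments and YWHAEP7 at 1.71 and 178 (−6.05) from 9 and 9.59 fragments, and SVIL2P was assembled in the knockdown alone at 60.4 FPKM.

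**Figure D4:**
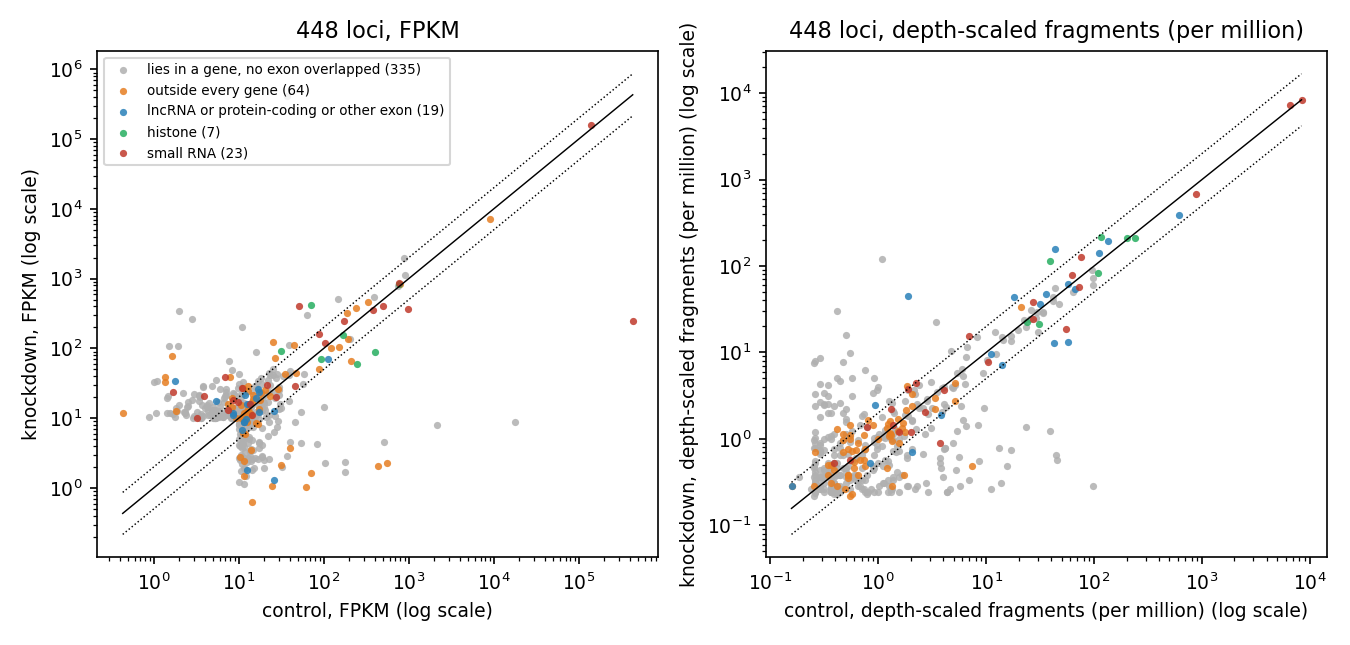
Level of the 448 loci present in both libraries, control against knockdown, in FPKM and in depth-scaled fragments (log scales), coloured by what their exons overlap, with lines at equal level and at 2-fold. RN7SL5P lies far from the line in FPKM (244 and 431458) and close to it in fragments (50.3 and 58.9).

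The 793 loci in protein-coding genes lay almost all in introns, 768 of them (96.8%). Where a strand was listed, 715 of those intronic loci (96.5%) were on the strand of the gene and 26 on the opposite strand. The sources do not state how the strand was read, although 99.9% of assembled transcripts with 1 exon list a strand. In lncRNA genes 81 of 94 loci were intronic and 65.4% of those were on the strand of the gene. The intronic loci in protein-coding genes came from 415 host genes, of which 299 held 1 locus, and 68.2% lay nearer the start of the host than its end. The hosts had a median span of 87.1 kb, against 34.4 kb for all 10086 protein-coding genes with a mean of at least 1 FPKM. Their median level was 16.7 FPKM in the knockdown and 17.2 in the control, against 9.12 and 9.04. The intronic loci lay a median of 3525 bases from the nearest exon. The same values over all assembled transcripts without a shared intron are not given here. So none of these values is read as a trait of the members.

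EXT1, which encodes a glycosyltransferase that extends heparan sulphate chains, held 72 loci, more than any other gene. All 72 lay in the first of its 10 introns, 272.9 kb long, over a span of 197 kb, and 71 were on its strand. Their middles lay 9.17 to 206 kb from the annotated start. The EXT1 loci were among the longer ones, with a median length of 366 nt, and together had 27240 fragments in the knockdown and 31780 in the control. Of the 72, 54 were in both libraries, 5 in the knockdown only and 13 in the control only, and 14 were at least 2-fold lower and 10 higher, together 24 of 72, where 75.9% of the 1027 loci and 50% of the 23098 background loci were past 2-fold. Over the 54 the median level was 11.1 FPKM in the knockdown and 10.9 in the control, with a median log2 ratio of 0.05, and the highest values among the 54 were 65.2 FPKM in the knockdown and 29.8 in the control. A locus in the control only reached 63.4 FPKM. At gene level EXT1 stood at 13.7 FPKM in the knockdown and 38.4 in the control, a log2 ratio of −1.42. The medians over the 54 EXT1 loci lie near 10 FPKM by the rule and leave out the loci in 1 library only. In depth-scaled fragments the 72 loci together had a log2 ratio of −0.35, over transcripts whose lengths can differ between the libraries. A further locus, over the first exon of EXT1 at chr8:118103305-118113048, was assembled at 19.2 FPKM in the knockdown and 16.2 in the control, and with overlapping reference transcripts at 13.7 and 7.22 FPKM its sums had a log2 ratio of 0.47. The values at EXT1 thus did not share 1 direction.

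**Figure D5:**
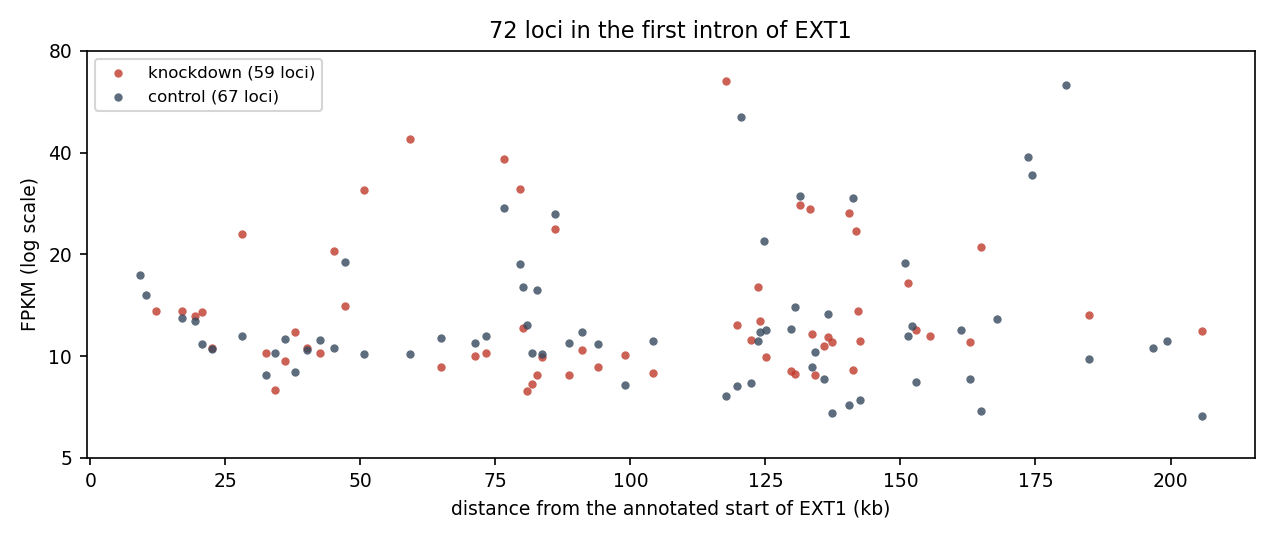
FPKM (log scale) of the 72 loci in the first intron of EXT1 against the distance of their middles from the annotated start of the gene in kb, for the knockdown and the control. Points of both libraries run along the intron from 9.17 to 206 kb, most of them near 10 FPKM.

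ZFAND3 held 24 loci, 14 in its first intron of 109.9 kb and 10 in the second of 131.6 kb, with 16 in the control only, 3 in the knockdown only and 5 in both. Of these 24, 16 were at least 2-fold lower and 6 higher, together 22 beside the 75.9% of all 1027 loci, while the gene itself was at 34.4 FPKM in the knockdown and 33.3 in the control. In fragments the ZFAND3 loci had 145 in the knockdown and 867 in the control. IL1RAPL1, a synaptic receptor gene, held 14 loci, 13 of them in intron 6, with 1260 fragments in the knockdown and 5260 in the control, and the gene was at 9.96 and 5.95 FPKM. Such sums of fragments take in every overlapping transcript at its own length, which can differ between the libraries. At chrX:29685373-29685672, 27 fragments in the knockdown gave 11.3 FPKM and 1694 in the control 8.67 FPKM. So these sums do not compare the same bases. SMURF2, a ubiquitin ligase gene, held 12 loci, all in the first of its 18 introns, with 7 lower and 2 higher from 527 and 628 fragments, and the gene was at 55.8 and 79.7 FPKM. DST, of the cytoskeletal linker dystonin, had 6 loci, all in the control only and with 136 fragments together, while the gene was at 67.8 FPKM in the knockdown and 49.2 in the control.

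CDC42EP3, which encodes an effector of the GTPase CDC42, held 9 loci in the third of its introns, and TRIO, a guanine nucleotide exchange factor gene, 9 in 5 introns. At CDC42EP3 3 loci were lower and 5 higher with 267 and 313 fragments, and at TRIO 2 were lower and 4 higher with 3775 and 5319. PTPRG and PTPRJ, both receptor phosphatase genes, held 8 loci each, with 3 lower and 5 higher at PTPRG and 2 lower and 5 higher at PTPRJ, but fewer fragments in the knockdown at both, 118 and 345 at PTPRG (−1.66 depth-scaled) and 81 and 229 at PTPRJ (−1.61). UGCG, which makes glucosylceramide, held 7 loci on its own strand over 19.9 kb, with 2 lower and 3 higher and 313 and 308 fragments. The sums of fragments again cover transcripts of unlike length, 189 nt in the knockdown and 2548 nt in the control at the PTPRG locus chr3:61596489-61596677. All these counts stand beside 395 lower and 384 higher of the 1027 loci, and nothing is read from the counts or from the sums of fragments.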

How the data were processed

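RNA-seq was compared between 1 library of MDA-MB-231 cells with RBMS1 knockdown and 1 control library. The transcript FPKM, the within-library interval and the read coverage were used as the authors deposited them; the submitters' processing notes name TopHat2 2.0.9, Bowtie2 2.0.6 and Cufflinks 2.1.1. The authors' own comparison table of fold changes and p-values (Cuffdiff 2.1.1) was left out, since it holds only a selection of transcripts. Annotation and sequences are those of GENCODE release 29 (GRCh38); with no genome sequence at hand, motif shares are over GENCODE small RNAs; 98.1% of matched reference transcripts started at the annotated base in each library.

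Members of both libraries were joined into a locus where exons overlapped by at least 1 base without opposite strands. A locus' level is the summed FPKM of all overlapping assembled transcripts without a shared intron, at any FPKM, and its class follows the order small RNA, histone, lncRNA, protein-coding, other, none. Gene FPKM sums reference transcripts and assembled transcripts sharing an intron. The log2 ratio has 1 FPKM added to both values, and 2-fold means at least 1 on the log2 scale in either direction; no test was made. Fragments were derived from the interval of transcripts with 1 exon as a function of length; of 46272 transcripts checked in the knockdown 93.0% and of 49868 in the control 93.1% came out whole within 0.01. Both library totals of fragments and the median coverage per FPKM, 12.3 and 11.3, gave a depth ratio of 1.09. Depth-scaled fragments have 1 fragment at mean depth added. Intervals cover error within a library only. At MALAT1, RN7SL2 and HIST1H3B they are wider than the counting error of the fragments given here.

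Loci were named by rule: at least 1% of all FPKM of a library, the 4 highest of each class, the 5 largest decreases and 5 largest increases in both libraries, the 3 highest of each library alone, and those nearest to 10 FPKM. Small RNA, histone, exon and host-gene loci beyond these were named after their values were seen. Members and lists were chosen with earlier results of these data known. Python 3.11.15, pandas 2.3.3, NumPy 2.4.6 and matplotlib 3.10.9 were used, and the steps were tested on simulated data. The simulated loci had the same length in both libraries and many fragments, so differences in assembled length and loci with few fragments were not covered.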

Additional observations from a re-analysis of the deposited data

How the results depend on the processing

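No paired analysis was possible because each group holds 1 library. The 1027 loci became 3668 at 5 FPKM or more (1377 lower, 1268 higher) and 338 at 20 FPKM or more (124 lower, 144 higher). Matching by overlap of at least 50% of both transcripts, 1-exon transcripts only, lengths of at least 200 nt, and introns compared on either strand kept the counts they were applied to within a factor of 1.5. The median log2 ratio of 0.10 was 0.093 with 5 FPKM added, 0.071 after rescaling to genes with a mean of at least 10 FPKM (whose median was 0.03), and 0.13 as a share of all FPKM. Under these settings, with 0.1 FPKM added and with reference transcripts added, all 32 named loci kept their sign. By the gene with most overlapping bases 12 loci were small RNA; by exons overlapped 12 were lncRNA, 26 protein-coding, 3 pseudogene or other and 944 none.

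The share of library FPKM, knockdown and control, was 11.3% and 12.9% as coverage times length, 24.5% and 31.4% without the highest transcript, and 22.0% and 26.5% for transcripts of at least 200 nt. The background without a filter held 12864 lower and 9853 higher loci.

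The remaining alternatives were chosen after seeing the data. In fragments the shares were 3.001% and 3.61%, the second with RN7SL2, a member in the control only. The median log2 ratio in depth-scaled fragments was −0.11. There 17 of 32 named loci had the same sign, and 9 past 2-fold in FPKM changed sign: MIER1 −2.23, CAPN15 −1.83, RNF114 0.34, chr22:30253763-30253944 0.13, PTPRG −4.26, PSORS1C1 −1.13, ZFAND3 −1.18, PVT1 −0.67 and AC131011.1 1.498. In all 9 the library with the higher FPKM had the shorter top transcript, and fragments are not divided by length. With at least 50 fragments in either library 311 loci were left, 66 lower and 90 higher, with a median of 0.15. The log2 ratio of RBMS1 was −2.65 with 0.1 FPKM added and −1.73 with 5. For the other changes the cause was not tested.

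Few fragments limit most members: 50% in the knockdown and 52.5% in the control had fewer than 20, and a locus without an assembled transcript in a library was not detectable as assembled there, not absent.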
